A study of Mus musculus with 6 samples.

Results

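The genes described here encode the proteins of the mitochondrial ribosome (mitoribosome). They were taken from the deposited expression table as the gene symbols that begin with Mrpl or Mrps followed by a number, leaving out any symbol marked as a pseudogene (-ps), of which there were 0. This gave 78 of the 24589 symbols in the table, 49 named for the large subunit (Mrpl) and 29 named for the small subunit (Mrps), and the subunits are counted by symbol here. Mouse primary CD8+ T cells of WT genotype had been activated with anti-CD3/28 antibodies, so activation was shared by both groups. One group then received TVA (trans-vaccenic acid, a fatty acid of ruminant milk and meat) at 20 µM over 24 h, and the control group the solvent DMSO over the same time, with 3 RNA-sequencing libraries each. The mice were adults by the study's methods, which give their age only as a range for all experiments, and whether the 3 libraries of a group came from separate mice or cultures is not given in the sources used here, so the p-values measure only the spread between these libraries.

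The mitoribosome sits in the mitochondrial matrix and translates the few mRNAs that the mitochondrial genome encodes, all of them for core subunits of the respiratory chain and ATP synthase. Its rRNAs come from mitochondrial DNA, whereas each of its proteins is encoded in the nucleus, made in the cytosol and imported. Part of these proteins descend from the bacterial ribosome, and the others were added in the mitochondrial lineage. T cells build up mitochondria and their translation machinery after activation, and mitochondrial translation is known to be needed for their expansion and effector function.

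Values are TPM, transcript abundance scaled by transcript length and to the same total in each library. Sequencing depth is unknown, because TPM keep no trace of it. Changes are fitted log2 differences, TVA minus DMSO, on the log2(TPM + 1) scale, which understates the change of genes with low values. The test was limma, its p-values adjusted over the 10866 tested genes by the method of Benjamini and Hochberg, and a gene is said to be called, to have risen or to have fallen, where its adjusted p was under 0.05. TPM are bulk values, in which fewer cells of a type and less RNA per cell cannot be told apart.

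The libraries carried the markers of CD8+ T cells. The 7 CD8+ T cell markers in the table, which included Cd8a, Cd3e and the cytotoxic protease gene Gzmb, summed to 6158 to 6502 TPM under DMSO and 6551 to 6676 TPM with TVA. Gzmb and the cytokine gene Ifng, with DMSO means of 3083 and 1670 TPM, made up most of this sum. The change was positive for 6 of the 7, all but Cd8b1, and 1 was called, Cd3g (0.28, limma adjusted p = 0.0063). Markers of CD4 T cells (7.55 to 10.1 TPM in sum), B cells (10.7 to 14.9 TPM) and NK cells (0.23 to 1.08 TPM) were low in all 6 libraries. Each of these sums was lower in every TVA library than in every DMSO library, but single markers did not all follow. Cd79b made up most of the B cell sum. Means were higher with TVA for the B cell markers Ms4a1 (0.30 TPM with DMSO, 0.37 TPM with TVA) and Pax5 (0.04 and 0.09 TPM). The same held for the CD4 T cell marker Foxp3 (0.63 and 0.76 TPM), and the other markers of these lists had lower means with TVA. The 5 myeloid markers summed to 34.2 to 36.7 TPM under DMSO and 45.7 to 48.3 TPM with TVA, of which the lysozyme gene Lyz2 made up most, and the 3 red cell markers varied from 7.27 to 24.8 TPM without separating the groups. Pax5 (B cell) was listed at 0 in DMSO replicates 2 and 3, Klra8 (NK cell) in TVA replicate 1 and Hbb-bs (red cell) in DMSO replicate 1. The part of these markers in the results below was not tested. Over the 78 genes the library labelled DMSO replicate 2 resembled the TVA libraries more than the other DMSO libraries. It is kept under its label, whether that label is right was not tested, and the results that rest on it are also given without it.

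All 78 genes passed the filter on low values and were tested. Mean levels over the 6 libraries ran from 12.1 to 459 TPM, with a median of 74.5 TPM for the large and 80.5 TPM for the small subunit, against 21.4 TPM over all genes tested. The highest were Mrpl33 (459 TPM), Mrpl52 and Mrpl20 in the large subunit and Mrps21 (272 TPM), Mrps6 and Mrps16 in the small subunit, and the lowest were Mrpl17 (12.1 TPM), Mrpl57 and Mrpl35 in the large subunit and Mrps25 (17.8 TPM), Mrps2 and Mrps31 in the small subunit. In Mrpl33, the most abundant, TPM were 439.92, 443.60 and 482.93 with DMSO and 467.92, 456.53 and 464.30 with TVA. In Mrpl17, whose protein lies near the exit of the peptide tunnel, they were 13.71, 11.89 and 11.74 with DMSO and 11.84, 11.51 and 11.71 with TVA. The groups overlapped in both genes, and the span of levels between genes was far wider than any difference between the groups.

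The summed levels of these genes overlapped between the groups. The large-subunit genes summed to 5399, 5206 and 5444 TPM under DMSO and to 5346, 5272 and 5280 TPM with TVA. For the small subunit the sums were 2928, 2695 and 2864 TPM in the DMSO libraries and 2808, 2789 and 2787 TPM in the TVA libraries. As mean ± SD (n = 3) this was 5350 ± 126 against 5299 ± 40.3 TPM for the large and 2829 ± 120 against 2795 ± 11.9 TPM for the small subunit. The TVA libraries lay inside the range of the DMSO libraries for both subunits, and the lowest sum in each came from DMSO replicate 2.

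Gene by gene, 1 large-subunit gene rose (Mrpl51), 1 small-subunit gene fell (Mrps28), and the other 76 were not called. This is 1 of 78 in each direction, while 5.28% of all genes tested were called higher and 3.23% lower with TVA. The direction was close to that of the whole table: 30 of 49 Mrpl and 17 of 29 Mrps changes were positive, 60.3% of the members, against 61.5% of all genes, and these shares were 48.7% and 53.5% after median-of-ratios scaling while after the GC correction 39 of 78 members and 56.8% of all genes were positive. The median change was 0.02 for Mrpl and 0.04 for Mrps, against 0.04 for all genes, and after median-of-ratios scaling these medians were -0.01, 0.01 and 0.01, and after the GC correction -0.01, 0.01 and 0.02. At an unadjusted p under 0.05 there were 15 Mrpl genes (9 higher, 6 lower) and 8 Mrps genes (4 higher, 4 lower), 13 higher and 10 lower of 78, while 21.5% of all genes tested were higher and 10.3% lower at that threshold.

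The changes were small and most were bounded closely. The fitted change was under 0.25 in size for 69 of 78 genes, 88.5% against 89.1% of all genes tested. For 34 large-subunit and 19 small-subunit genes the whole 95% interval lay within 0.25 of 0, and for 73 of the 78 it lay within 0.5, with a median SE of 0.05. Groups without overlap were found for 16 members with TVA higher (10 Mrpl, 6 Mrps) and 6 with TVA lower (4 Mrpl, 2 Mrps), while 27.3% of all genes tested had every TVA library higher and 11.2% every TVA library lower. The forest plot shows the 2 called genes and a longer tail on the negative side.

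**Figure D1:**
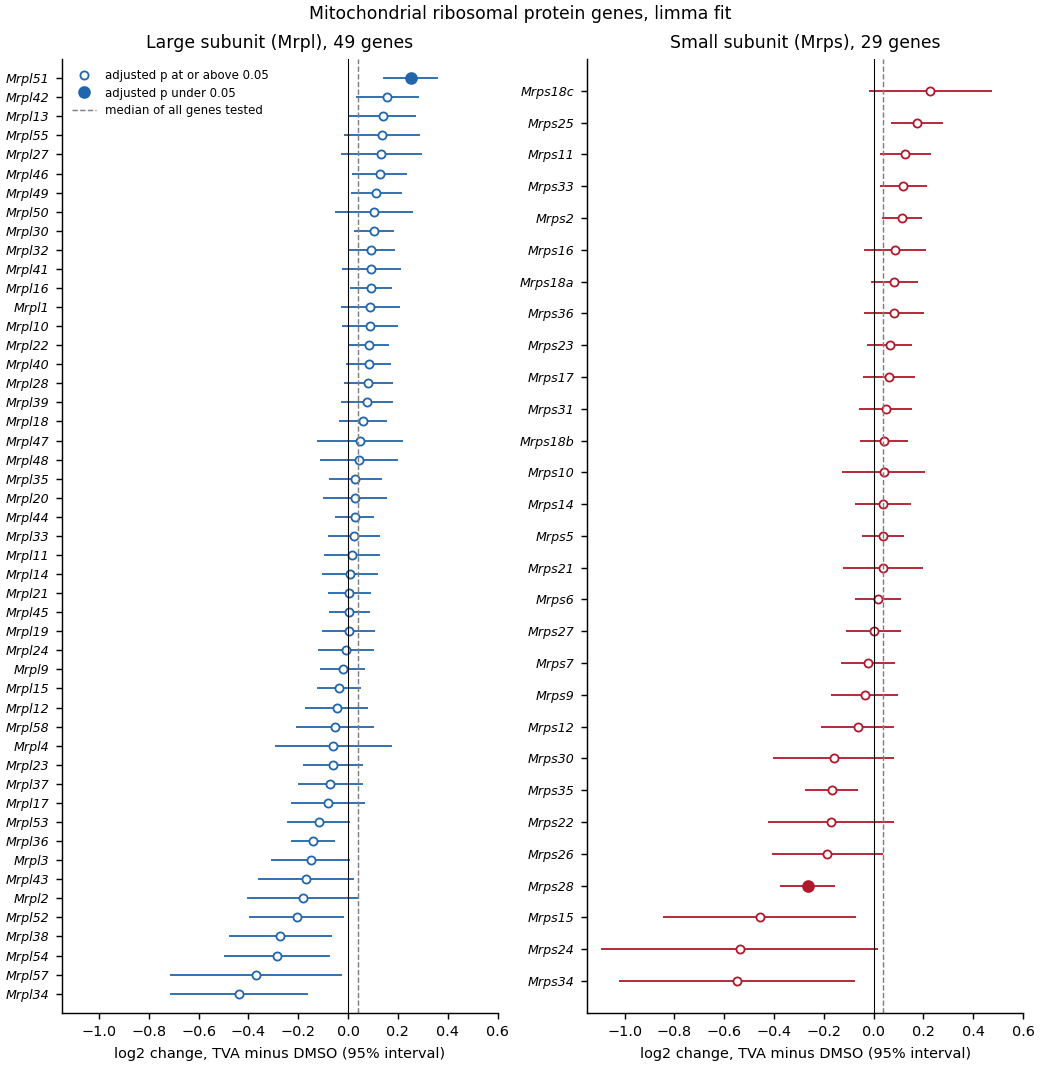
Fitted log2 change (TVA minus DMSO, log2(TPM + 1) scale) with its 95% interval for the 49 large-subunit (left) and 29 small-subunit genes (right). The dashed line is the median of all genes tested (0.04), filled points mark Mrpl51 and Mrps28, and the largest fitted decreases, of Mrps34, Mrps24 and Mrps15 in the small and Mrpl34 and Mrpl57 in the large subunit, have wide intervals.

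Mrpl51 encodes a protein of the large subunit that has no bacterial counterpart. The gene is annotated at chr6:125191801-125196269 (GRCm38, plus strand), and its exons share bases with the microRNA gene Mir3098. It had 79.28, 88.80 and 86.48 TPM in the DMSO libraries and 101.60, 100.85 and 100.65 TPM in the TVA libraries. All TVA libraries lay above all DMSO libraries, and the TVA values differed among themselves by about 1 TPM. The log2 change was 0.25 ± 0.05 (SE, n = 3 per group, limma adjusted p = 0.025). The call was lost without DMSO replicate 3 (adjusted p = 0.059), without any 1 of the TVA libraries (0.097 to 0.12) and after median-of-ratios scaling (0.061).

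Mrps28 encodes a small-subunit protein of bacterial descent that stands where bacterial protein S1 would be. The gene lies at chr3:8802146-8923918 (minus strand), and its exons overlap no other annotated gene. It had 84.00, 89.87 and 90.09 TPM in the DMSO libraries and 76.72, 71.63 and 70.76 TPM in the TVA libraries. All TVA libraries were below all DMSO libraries, and DMSO replicate 2 sat with the other DMSO libraries. The log2 change was -0.27 ± 0.05 (SE, n = 3 per group, limma adjusted p = 0.022). It lost its call without DMSO replicate 3 (adjusted p = 0.063) and without any 1 of the TVA libraries (0.057 to 0.12).

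The largest fitted decreases were not called. Mrps34, a mitochondria-specific protein of the small subunit, had 92.20, 51.44 and 91.94 TPM in the DMSO libraries and 52.67, 53.44 and 48.75 TPM in the TVA libraries. DMSO replicates 1 and 3 were high, and DMSO replicate 2 lay among the TVA libraries. The log2 change was -0.55 ± 0.20 (SE, limma adjusted p = 0.12). The gene is at chr17:24895116-24897502, where its exons share bases with Nme3 on the same strand (log2 change -0.09, adjusted p = 0.58) and with Mapk8ip3 on the other strand.

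Mrps24, which belongs to the bacterial S3 family at the mRNA entry side of the small subunit, had the same pattern. It had 79.43, 37.36 and 68.41 TPM in the DMSO libraries and 37.93, 40.68 and 42.06 TPM in the TVA libraries. DMSO replicate 2 was the lowest of all 6 libraries, so the groups overlapped, and the change of -0.54 ± 0.24 was not called (limma adjusted p = 0.17). Mrps24 (chr11:5703983-5715680) shares exon bases on the same strand with Urgcp, whose change was 0.01 (adjusted p = 0.95).

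Mrps15, a homologue of bacterial S15, which binds the small-subunit rRNA, had 101.95, 69.36 and 117.22 TPM in the DMSO libraries and 64.80, 69.13 and 70.67 TPM in the TVA libraries. Again DMSO replicates 1 and 3 were high and DMSO replicate 2 fell inside the TVA range. Its change was -0.46 ± 0.17 (limma adjusted p = 0.11), and its exons (chr4:126046925-126055532) overlap no other gene.

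In the large subunit the 3 largest decreases were those of Mrpl34, Mrpl57 and Mrpl54. Mrpl34, the homologue of bacterial L34 (chr8:71464959-71465747), had 156.28, 111.68 and 154.03 TPM in the DMSO libraries and 103.66, 98.96 and 104.73 TPM in the TVA libraries. DMSO replicate 2 was close to the TVA libraries but above them, so the groups did not overlap, and the change was -0.44 ± 0.12 (limma adjusted p = 0.060). Mrpl57, a small mitochondria-specific protein, had 22.90, 14.15 and 19.57 TPM in the DMSO libraries and 14.80, 14.33 and 13.27 TPM in the TVA libraries, with DMSO replicate 2 inside the TVA range (log2 change -0.37, adjusted p = 0.14). Mrpl54 had 200.02, 152.43 and 182.30 TPM in the DMSO libraries and 147.69, 138.37 and 149.30 TPM in the TVA libraries, without overlap (log2 change -0.29, adjusted p = 0.085).

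**Figure D2:**
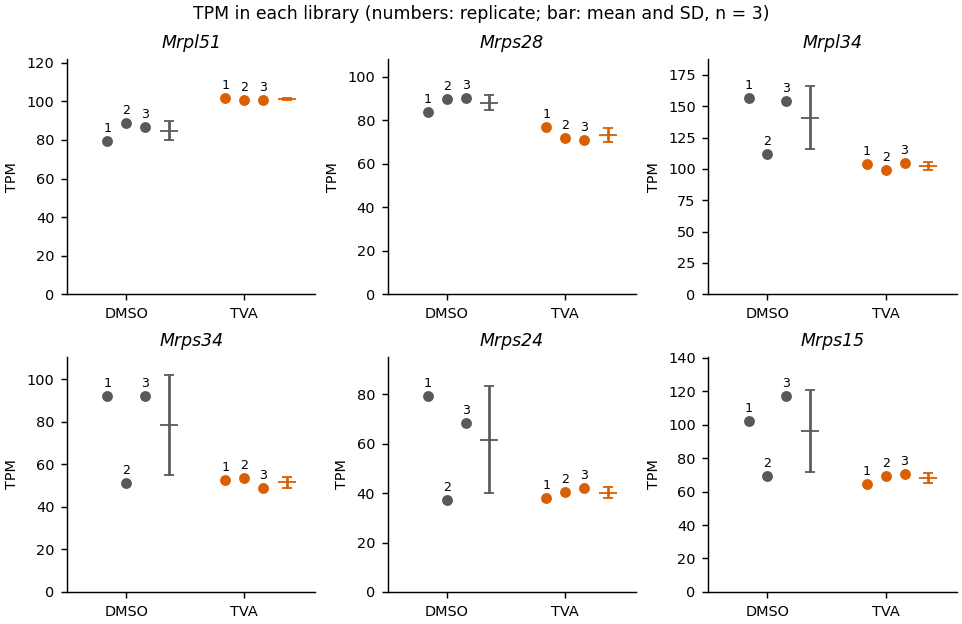
TPM in each library for the 2 called genes (Mrpl51, Mrps28) and for Mrpl34, Mrps34, Mrps24 and Mrps15, with replicate numbers and with mean and SD (n = 3) beside the points. DMSO replicate 2 stands with the TVA libraries in Mrps34 (51.44 TPM), Mrps24 (37.36 TPM) and Mrps15 (69.36 TPM), but with the other DMSO libraries in Mrps28 (89.87 TPM).

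The largest increases in each subunit beside Mrpl51 were smaller and were not called. Mrps18c, 1 of 3 mammalian homologues of bacterial S18 and the one that occupies the S18 site of the small subunit, had 129.56, 174.76 and 170.07 TPM in the DMSO libraries and 176.63, 185.83 and 188.93 TPM in the TVA libraries. The groups did not overlap, DMSO replicate 1 was far below the other DMSO libraries, and the change was 0.23 ± 0.11 (limma adjusted p = 0.18), or 0.09 without DMSO replicate 1. Mrps25 had 17.02, 16.07 and 17.01 TPM in the DMSO libraries and 18.46, 19.35 and 19.01 TPM in the TVA libraries, again without overlap (log2 change 0.17, adjusted p = 0.055). Mrpl42 (0.16, adjusted p = 0.10) and Mrpl13 (0.14, adjusted p = 0.15) followed in the large subunit and Mrps11 (0.13, adjusted p = 0.10) in the small subunit. In RefSeq, Mrps11 is annotated with its start 42 bp from that of Mrpl46 and in the opposite orientation. Mrpl46 had a change of 0.13 (adjusted p = 0.12), and both genes had every TVA library above every DMSO library. In GENCODE vM21, which places these starts differently, the exons of Mrps11 and Mrpl46 share bases on opposite strands. Whether counting used the strand is not given in the sources used here, so their reads may not be separable.

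RefSeq promoter windows (GRCm38.p6, 250 bases before and 50 after the start) were on hand for 69 of the 78 genes. They were searched on both strands for motifs of factors known from the regulation of nuclear genes for mitochondrial proteins. The ETS motif bound by GABPA, also named NRF2 (CCGGAAG), was present in 32.6% of 43 Mrpl and 42.3% of 26 Mrps promoters, against 9.12% of all 27025 promoter windows. The YY1 motif (AAGATGGC) stood in 14.0% and 23.1%, against 2.88%, and the NRF1 motif (CGCATGCG) in 14.0% and 3.85%, against 1.91%. The CRE (TGACGTCA), to which CREB binds, was in 4.65% of Mrpl promoters (Mrpl16 and Mrpl49), in 0 of 26 Mrps promoters and in 1.88% of all, and the E-box bound by MYC (CACGTG) in 9.3%, 3.85% and 7.24%. The background windows were not limited to genes tested here, whereas all members were expressed. Promoters of expressed genes alone were not compared. A match of letters is a description and no evidence of binding. Mrpl16 and Mrpl49 had changes of 0.09 and 0.11 (adjusted p = 0.13 for both).

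The 250 bases before the RefSeq start are shown for 3 of the members with the largest fitted changes, chosen because their windows hold no annotated exon: Mrpl34 (chr8:71464676-71464925, plus strand) and Mrps24 (chr11:5707702-5707951, minus strand), among the largest decreases, and Mrpl42 (chr10:95501950-95502199, minus strand), among the largest increases. They are written 5′ to 3′ on the strand of the gene, and capitals mark a match to a searched motif.
Mrpl34: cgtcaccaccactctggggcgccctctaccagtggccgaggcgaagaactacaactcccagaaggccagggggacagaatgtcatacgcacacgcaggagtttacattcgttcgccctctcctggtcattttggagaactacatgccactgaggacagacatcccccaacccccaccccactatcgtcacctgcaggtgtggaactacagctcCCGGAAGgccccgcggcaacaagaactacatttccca
Mrps24: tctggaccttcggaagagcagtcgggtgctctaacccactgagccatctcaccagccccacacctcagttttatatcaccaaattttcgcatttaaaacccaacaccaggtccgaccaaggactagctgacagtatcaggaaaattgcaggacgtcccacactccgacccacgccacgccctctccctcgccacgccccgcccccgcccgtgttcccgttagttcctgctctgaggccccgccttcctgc
Mrpl42: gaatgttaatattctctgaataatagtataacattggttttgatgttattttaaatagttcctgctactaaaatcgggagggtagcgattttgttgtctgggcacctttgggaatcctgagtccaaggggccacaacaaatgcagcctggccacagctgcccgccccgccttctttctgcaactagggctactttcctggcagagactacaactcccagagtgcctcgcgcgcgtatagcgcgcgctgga
The Mrpl34 window holds 1 ETS motif, whose first base is 37 bases before the start, and no searched motif stands in the 250 bases of Mrps24 or Mrpl42. In both of those genes a YY1 motif is in the 50 bases after the start, which are not printed. The windows have 12, 15 and 11 CpG dinucleotides and a GC content of 58%, 58.8% and 49.2%. For all 3 genes the bases just after the RefSeq start were not found in a GENCODE vM21 transcript of the gene, so these starts rest on RefSeq alone.

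Sets of proteins grouped by place or descent in the ribosome were described without a test of differences between them. Mrpl10, Mrpl11 and Mrpl12, which form or carry the stalk that recruits translation GTPases, had changes from -0.05 to 0.09 and 0 calls, and Mrpl12, which is also reported to bind the mitochondrial RNA polymerase, had 311.28, 273.12 and 276.71 TPM in the DMSO libraries and 282.04, 275.35 and 274.91 TPM in the TVA libraries. The 8 genes around the exit of the peptide tunnel, which include the membrane anchor Mrpl45 (log2 change 0.00, adjusted p = 0.94), ranged from -0.08 to 0.08 with 0 calls by limma. In the central protuberance 5 genes ranged from -0.27 (Mrpl38, adjusted p = 0.089) to 0.13 (Mrpl46) with 0 calls. At an unadjusted p under 0.05 there were 0 stalk, 1 exit tunnel and 2 central protuberance genes, and 3451 of all 10866 genes tested.

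By descent, the 30 large-subunit proteins with a bacterial homologue had a median change of 0.02 and 0 calls by limma (7 at an unadjusted p under 0.05). The 20 mitochondria-specific ones, counting Mrps30, had a median of 0.02 and 1 call, Mrpl51 (8 at an unadjusted p under 0.05). The 18 Mrps genes with a bacterial homologue, Mrps18a included, had a median of 0.04 and 1 call, Mrps28 (4 at an unadjusted p under 0.05). The 9 mitochondria-specific small-subunit genes had a median of 0.00 and 0 calls (4 at an unadjusted p under 0.05). Of all 10866 genes tested, 3451 had an unadjusted p under 0.05. Mrps36 was in none of these classes. These medians lay within 0.04 of each other, and no difference between the classes was tested.

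Some symbols do not tell the place of the protein. Mrps30 and Mrps18a sit in the large subunit of the mammalian mitoribosome. Mrps30 had a change of -0.16 (adjusted p = 0.32), with 72.42, 52.23 and 65.00 TPM in DMSO and 56.03, 55.21 and 56.62 TPM in TVA. Mrps18a had a change of 0.08 (adjusted p = 0.20), and Mrps18b, the remaining S18 homologue, one of 0.04 (adjusted p = 0.50). Mrps36, now regarded as a component of the 2-oxoglutarate dehydrogenase complex, had a change of 0.08 (adjusted p = 0.30). Mrpl58, a peptidyl-tRNA hydrolase that became a ribosomal protein, changed by -0.05 (adjusted p = 0.60), and Mrps12, the homologue of the decoding-site protein S12, by -0.06 (adjusted p = 0.51).

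The spread within the DMSO group was larger than within the TVA group. The SD of the TPM was larger with DMSO for 67 of 78 genes (85.9%, against 73.3% of all genes tested). The median coefficient of variation was 5.38% with DMSO and 2.66% with TVA. DMSO replicate 2 was closer to the TVA libraries than to either of the other DMSO libraries. Across the 78 genes its log2(TPM + 1) values correlated with the TVA libraries at 0.996 (Pearson), but with DMSO replicates 1 and 3 at 0.972 and 0.981, which correlated with each other at 0.992. These correlations describe 78 genes of the same libraries, and genes are not independent replicates. The median absolute log2 difference between DMSO replicate 2 and the TVA libraries was 0.06 to 0.07, and 0.12 and 0.08 to DMSO replicates 1 and 3, which were 0.09 from each other. DMSO replicate 2 was nearer to the TVA mean than to the mean of the other DMSO libraries for 51 of 78 members (65.4%), against 47.6% of all genes tested.

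**Figure D3:**
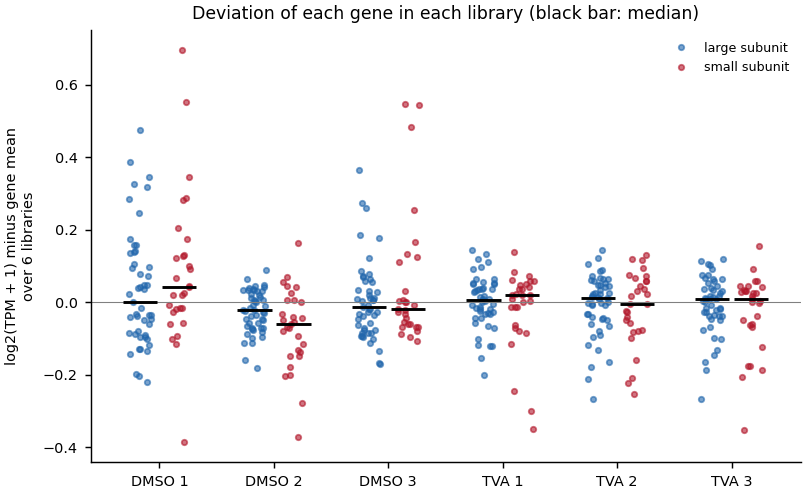
Deviation of log2(TPM + 1) from each gene's mean over the 6 libraries, by library, for large-subunit (blue) and small-subunit genes (red), with medians as black bars. DMSO replicates 1 and 3 carry the points far above 0 (Mrps34, Mrps24, Mrps15 and Mrpl34 among them), while DMSO replicate 2 has no such tail and its small-subunit median is the lowest, at -0.06.

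Without DMSO replicate 2, 23 members were called, among them both Mrpl51 and Mrps28. These were 17 lower (9 Mrpl and 8 Mrps, 21.8% of the members, against 9.38% of all genes tested) and 6 higher (4 Mrpl and 2 Mrps, 7.69% against 11.3% of all genes). This fit rests on 2 DMSO libraries, and the omitted library was singled out by its likeness to the TVA libraries over these same genes. DMSO replicate 2 was nearer to the TVA mean for 15 of the 17 lower and 5 of the 6 higher genes. The shares called are therefore a description and no separate test of the members. The median GC content of the transcripts was 55.2% for the lower and 51.2% for the higher genes. The 17 lower genes were Mrpl3, Mrpl34, Mrpl36, Mrpl38, Mrpl43, Mrpl52, Mrpl53, Mrpl54, Mrpl57, Mrps15, Mrps22, Mrps24, Mrps26, Mrps28, Mrps30, Mrps34 and Mrps35, and the 6 higher were Mrpl27, Mrpl42, Mrpl46, Mrpl51, Mrps16 and Mrps33. The largest were Mrps24 at -0.86 ± 0.07 (SE, limma adjusted p = 3.6e-04), Mrps34 at -0.82 ± 0.05 (1.1e-04), Mrps15 at -0.67 ± 0.07 (8.2e-04) and Mrpl34 at -0.59 ± 0.04 (1.7e-04). Omitting DMSO replicate 1 or 3 instead made the same decreases smaller, and these were not called: Mrps24 was at -0.33 and -0.43, Mrps34 at -0.41 and -0.41, Mrps15 at -0.40 and -0.30, and Mrpl34 at -0.35 and -0.36. With all 6 libraries only Mrps28 among these 17 passed the threshold.

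**Figure D4:**
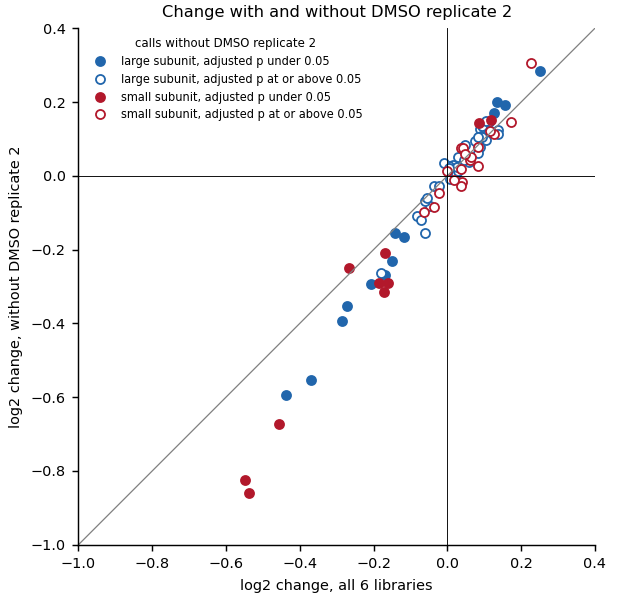
Fitted log2 change of the 78 genes with all 6 libraries (x axis) and without DMSO replicate 2 (y axis), by subunit, where filled points had an adjusted p under 0.05 without that library and the diagonal marks equal values. Mrps24 moved from -0.54 to -0.86 and Mrps34 from -0.55 to -0.82, while Mrps28 stayed near the diagonal (-0.27 and -0.25).

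The change also ran with base composition. Over the 78 members the log2 change and the GC content of the transcripts (median per gene, GENCODE vM21) had a Spearman correlation of -0.43 (-0.46 for Mrpl, -0.42 for Mrps), and over all genes tested it was -0.40. These are correlations across genes of the same 6 libraries. Members had a median GC content of 51.4% and a median transcript length of 848 bases, against 50.4% and 1319 bases for all genes. The 6 genes with all TVA libraries lower had a median of 56.4% GC, and the 16 with all TVA libraries higher had 50.2%. Mrps24 (60.3% GC), Mrps34 (60.6%) and Mrpl54 (60.8%) are at the GC-rich end, whereas Mrpl57 (49.7%) and Mrps35 (48.8%) are not. With the GC trend of each library subtracted, Mrps34 stood at -0.38 (adjusted p = 0.15), Mrps24 at -0.38 (0.21), Mrpl54 at -0.11 (0.15) and Mrpl57 at -0.40 (0.11), and Mrpl51 (0.26, adjusted p = 0.042) and Mrps28 (-0.25, 0.045) were still called. The correction also called Mrpl28, Mrpl55 and Mrps11 higher and Mrps35 lower, which made 4 higher and 2 lower of 78, while it called 5.33% of all genes tested higher and 4.94% lower.

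**Figure D5:**
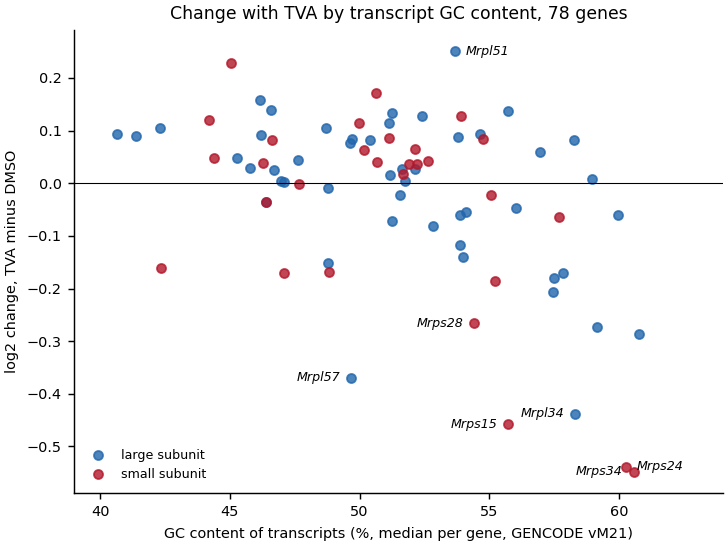
Fitted log2 change (TVA minus DMSO, all 6 libraries) against the GC content of the transcripts for 49 large-subunit and 29 small-subunit genes. Changes decline toward high GC (Spearman -0.43 over 78 genes), with Mrps34 and Mrps24 at the lower right, Mrpl57 low at 49.7% GC and Mrpl51 highest at 53.7% GC.

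Genes that work with the mitoribosome were looked at beside it. Of 5 subunits whose symbols do not begin with Mrp (Dap3, Ptcd3, Chchd1, Aurkaip1 and Gadd45gip1) 0 were called by limma, and 1 had an unadjusted p under 0.05. The most negative change of these was that of Gadd45gip1, with 74.34, 46.46 and 61.86 TPM in DMSO and 41.90, 40.64 and 41.15 TPM in TVA (log2 change -0.53, adjusted p = 0.060), with DMSO replicate 2 nearest to the TVA libraries. The 26 assembly factors, such as rRNA methyltransferases, helicases and GTPases that act on the maturing subunits, had 0 calls by limma (3 at an unadjusted p under 0.05) and a median change of 0.04. Malsu1, which keeps the large subunit from joining too early, had 53.62, 28.17 and 52.81 TPM in the DMSO libraries and 22.10, 25.01 and 24.54 TPM in the TVA libraries, a change of -0.83 (adjusted p = 0.058) with no overlap.

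Further along the pathway, 15 translation factors (median 0.03) and 22 genes of mitochondrial tRNA charging (median -0.02) had 0 calls by limma, and 4 and 3 of them had an unadjusted p under 0.05. The tRNA charging genes were the mitochondrial synthetases, among them Gars and Kars, whose products also serve the cytosol, and the amidotransferase subunits Gatb, Gatc and Qrsl1. Among 8 genes of mitochondrial DNA transcription, Mterf1b (0.40, adjusted p = 0.010) and Mterf1a (0.25, adjusted p = 0.047) rose, and Lonp1, the matrix protease that turns over the transcription factor TFAM, fell (log2 change -0.25, adjusted p = 0.042). Mterf1a and Mterf1b are near-identical copies, so their separate values are uncertain. Transcripts of mitochondrial DNA itself were absent from the deposited values under the gene names searched, so they were not analysed here.

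For scale, 85 tested genes of the cytosolic ribosome had 1 call (Rps4l, lower) and a median change of -0.03, with 27 changes positive, and 78 tested nuclear genes of the respiratory chain and ATP synthase had 1 rise (Ndufb2), 1 fall (Ndufb10) and a median of 0.05, with 52 positive. No difference between these groups and the mitoribosome was tested.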

How the data were processed

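RNA from the activated CD8+ T cells was turned into libraries with the SMARTER mRNA-Seq kit, per the labels. The authors deposited TPM per gene symbol for 6 libraries. STAR, RSEM and the build mm10 are named in the submitters' processing notes, and versions, annotation and strandedness are not given in the sources used here. Group and replicate came from the sample titles and columns were matched through the sample descriptions.

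The deposited TPM were not rescaled. Genes with at least 1 TPM in at least 3 libraries were tested (10866 of 24589) as log2(TPM + 1), a pseudocount of 1, with limma 3.58.1 in R 4.3.3 (variance trend, two-sided, Benjamini-Hochberg adjustment over all genes tested, threshold 0.05). The fit was tested on simulated data. No block was fitted for the replicate number, because deviations of same-numbered libraries from their group means correlated at 0.16, 0.03 and -0.08 and no source states a pairing. TPM hold no depth, so no counting interval or detection limit was given.

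GC content, transcript length, gene positions and overlaps came from GENCODE vM21 (GRCm38, the same assembly as mm10), with a GC value for 99.5% of genes tested, and promoter windows from RefSeq (GRCm38.p6). The alternatives were a pseudocount of 0.1, no filter, a stricter filter (mean of 10 TPM or more), median-of-ratios scaling, quantile normalization, no variance trend, a replicate block, GC and length corrections (loess, span 0.5, per library) and the omission of each library. Figures were drawn with matplotlib 3.10.9.

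The genes, lists and motifs were chosen with earlier results of these data known. Members were named if called, among the 3 largest rises or falls or the 3 highest or lowest levels of their subunit, or by a role on a written list, and members called under an alternative, Mrpl36, Mrpl46, Mrps35 and those with a motif were named after their values were seen. No protein sequence was used here.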

Additional observations from a re-analysis of the deposited data

How the results depend on the processing

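The Mrpl and Mrps calls moved with the library set more than with the scale. Of 925 genes called, 574 were higher and 351 lower, against 292 and 462 with median-of-ratios scaling and 357 and 418 with quantile normalization. The number called was 494 without a filter, 608 with a mean of at least 10 TPM, 218 with a replicate block and 102 to 2242 with 1 library omitted (2242 without DMSO replicate 2, 294 without DMSO replicate 3, 125, 102 and 113 without TVA replicates 1, 2 and 3). For Mrpl the count of 1 became 2 with quantile normalization, 3 with the GC correction, 0 with the replicate block (11 at an unadjusted p under 0.05) and 0 to 13 with 1 library omitted. The Mrpl count was 0 when DMSO replicate 3 or any TVA library was left out (6 or 7 at an unadjusted p under 0.05) and 2 without DMSO replicate 1. With median-of-ratios scaling it stayed at 1, but the gene was Mrpl36 (-0.17, limma adjusted p = 0.044) in place of Mrpl51. Mrpl36 was also called with quantile normalization (-0.16, 0.046), and its change in the main fit was -0.14 (0.057). For Mrps the count of 1 became 2 with median-of-ratios scaling, 3 with the GC correction, 0 with the replicate block (10 at an unadjusted p under 0.05) and 0 to 10 with 1 library omitted, again 0 for the same 4 omissions (4 to 6 at an unadjusted p under 0.05).

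With the replicate block the adjusted p was 0.057 for Mrpl51 and 0.064 for Mrps28. The Mrpl median log2 change, 0.025, was -0.0056 with median-of-ratios scaling, 0.0014 with quantile normalization, -0.0059 with the GC correction and 0.013 to 0.031 with 1 library omitted. The Mrps median, 0.037, was 0.0075 with median-of-ratios scaling, 0.023 with quantile normalization and 0.0075 with the GC correction. It was 0.012 without DMSO replicate 2, 0.023 without DMSO replicate 3 and 0.029 to 0.039 with any other library omitted. The cause of these shifts was not tested. Over 15 alternatives and 19 members (those called, those with the largest rises and falls, and Mrps18a, Mrps18b, Mrps30, Mrpl36, Mrps35 and Mrpl46), 258 of 285 values kept their direction and side of the threshold, 11 lost the call, 16 gained it and 0 changed sign. Of all 78 members, 25 changed sign under at least 1 alternative, each with a fitted change of at most 0.09 in size, among them 9 under median-of-ratios scaling and 14 under the GC correction. Depth is unknown and sets no stated limit.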
